A study of Mus musculus with 4 samples.

Results

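Fibronectin, the matricellular proteins and the paired integrin ligands Edil3 and Mfge8 were followed through 4 mouse mammary tumor cell lines, each profiled once by RNA sequencing. The 9 genes (Fn1, Sparc, Postn, Tnc, Thbs1, Thbs2, Spp1, Edil3 and Mfge8) were taken by name from a table of 21090 genes. They were listed with earlier results of these data known, and Edil3 was listed because it was low in both knockouts, so the contrast of knockouts with controls is a description here and carries no p-value for these genes.

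By the description of the study, the edited lines were made from a line of a mammary primary tumor that had spread to the lung, in a C57BL/6 mouse in which Cre recombinase driven by the MMTV promoter switched on an activating Pik3ca mutation and a dominant-negative Trp53 mutation. The parental line (titled 307 cell) and a line given the vector control (307) formed the control group (n = 2), and carried both mutations as did the edited lines. The knockout group (n = 2) was made up of 1 line cut in exon 3 of the S100a4 gene (titled 307) and 1 cut in exon 2 (titled 308), both made with a lentivirus carrying Cas9 and a guide RNA and selected on puromycin. The 308 in the exon 2 title does not occur in the other titles, so guide, line and number cannot be told apart, and no label says whether the lines are clones or pools. Levels are RPKM, that is reads divided by gene length in kilobases and by the library's total, on a per-million scale. Those totals were inferred from the RPKM values and annotated coding lengths. They lay between 22472024 (exon 2 knockout) and 31235456 (parental line). S100a4 RPKM was 3576 in parental cells, 4741 with the vector, 1136 after exon 3 editing and 1105 after exon 2 editing.

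Fibronectin is a large adhesive glycoprotein that cells assemble into fibrils, and matricellular proteins are secreted into the same matrix to tune adhesion and growth factor signals rather than to bear load. Many of them are read by integrins, the heterodimeric receptors that connect matrix to the actin cytoskeleton. In breast tumors they are known mainly as products of the stroma and of cancer cells with a mesenchymal state. Edil3 (also called Del1) and Mfge8 (lactadherin) are a homologous pair with EGF-like and discoidin domains, and both can bridge integrins to phosphatidylserine on dying cells or vesicles.

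The motif by which integrins recognise several of these proteins is the tripeptide arginine-glycine-aspartate, so its codons were searched in frame in the longest annotated coding sequence of each gene (GENCODE M21, GRCm38). The search letters were CGN, AGA or AGG, then GGN, then GAT or GAC, on the coding strand only. At least 1 match was found in 6 of the 9 genes. Of 20513 genes of the table with a coding sequence 7.42% had a match, and of 10772 tested ones 8.87%, shares not adjusted for length. Fn1 held 2 matches, Thbs1, Thbs2, Spp1, Edil3 and Mfge8 held 1 each, and Sparc, Postn and Tnc held none in the sequence searched. The sites are a feature of 6 of the 9 genes. Several of the 9 are known integrin ligands, so this share is not independent of how the genes were chosen. Capitals mark the 3 codons and lower case the 9 bases on each side, read 5′ to 3′ on the coding strand.
Fn1, exon 30: gtcactggcCGTGGGGACagtccagca
Fn1, exon 40: catgttcccAGGGGAGACgtagactac
Spp1, exon 7: cccaacggcCGAGGTGATagcttggct
Edil3, exon 4: gaagcctatCGAGGAGACacattcata
Mfge8, exon 3: gacacacagCGTGGGGACatcttcacc
Thbs1, exons 17 and 18: ggtgatggcCGAGGTGACgcctgcaaa
Thbs2, exons 17 and 18: ggtgacggcCGAGGTGACatttgtaaa
In order, these coding exon stretches lie at chr1:71606737-71606763 (minus strand), chr1:71597434-71597460 (minus), chr5:104439472-104439498 (plus), chr13:89042482-89042508 (plus) and chr7:79145299-79145325 (minus). The thrombospondin stretches each cross an intron, at chr2:118122680-118122899 (plus) and chr17:14671475-14673144 (minus). Both thrombospondins use the same 9 bases at the match, at codon 927 in Thbs1 and 928 in Thbs2, and the first Fn1 site shares its 9 bases with Mfge8. A match shows the letters only, and whether each one binds an integrin was not measured.

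Edil3 was the gene of the set whose knockouts stood furthest from both controls. It lies on chromosome 13 from 88821472 to 89323223 on the plus strand. Parental cells had an Edil3 RPKM of 9.56 from 431 reads, with a 95% Wilson interval of 8.70 to 10.5, and cells with the vector had 7.50 from 275 reads (6.67 to 8.44). After exon 3 editing it was 1.004 from 34 reads (0.718 to 1.40), and after exon 2 editing 1.17 from 38 reads (0.854 to 1.61). Both knockouts lay below both controls, and the intervals of the knockouts overlapped each other but not those of the controls. Intervals cover counting error only, since reads are not independent molecules and each line has 1 library.

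Mean Edil3 was 8.53 ± 1.46 RPKM for controls and 1.09 ± 0.119 for knockouts (SD, n = 2 each), a ratio of 7.84 between the means and of 6.40 between the lower control and the higher knockout. On the scale of log2(RPKM + 1), on which all log2 differences here are given and which understates the change of low genes, the difference was -2.18 (SE 0.354). It ran from -2.40 (exon 3 knockout against parental line) to -1.97 (exon 2 knockout against vector control) over the 4 pairs of a knockout with a control. Leaving out each library in turn gave values from -2.34 to -2.03. Of the 10871 genes tested, those averaging 1 RPKM or more, 1.73% were at least 2-fold lower in all 4 pairs, a property that 1 of the 9 genes, Edil3, had by the way it was listed.

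The coding GC content of Edil3 was 45.8% (range of the 9 genes 45.8 to 56.9%), against a median of 53.1% over tested genes. The 779 tested genes within 1 percentage point of Edil3, itself included, had a median log2 difference of -0.55, where all tested genes had -0.08. Of the 779, 27 (3.47%, Edil3 among them) were at least 2-fold lower in all 4 pairs. After correction of each library for GC content and length, the Edil3 difference was -1.66, and it ranged from -2.03 to -1.29 over the 4 pairs.

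Mfge8, the homologue of Edil3 and a protein of the milk fat globule that bridges dying cells to phagocytes, lies on chromosome 7 from 79133768 to 79149060 on the minus strand. Mfge8 RPKM was 426 in parental cells, 265 with the vector, 437 after exon 3 editing and 401 after exon 2 editing. The vector control was the low library, while the other 3 lay close together. The control mean was 345 ± 114 and the knockout mean 419 ± 25.4 (SD, n = 2 each), with a log2 difference of 0.32 (SE 0.322) that was -0.03 without the vector control and 0.17 after the GC and length correction. Mfge8 was the more abundant of the pair in every library, and its RPKM exceeded that of Edil3 by 44.5 times in the parental line and 35.3 times in the vector control. The ratio was 435 after exon 3 editing and 342 after exon 2 editing. Since Edil3 was so much lower per length, the summed RPKM of the pair followed Mfge8, at 435, 272, 438 and 402 in the same order of libraries.

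**Figure D1:**
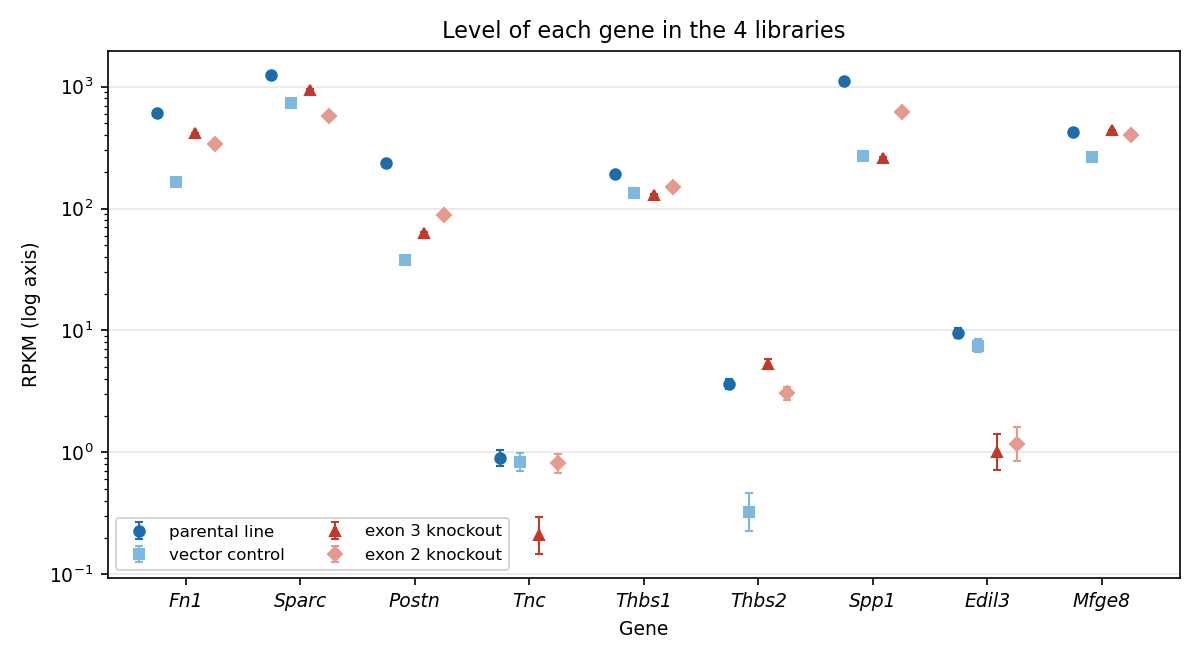
RPKM of each of the 9 genes (log axis) in the parental line, vector control, exon 3 knockout and exon 2 knockout, 1 library each; bars are 95% Wilson intervals for counting error. Edil3 shows both knockouts (1.004 and 1.17) below both controls (9.56 and 7.50), while for Fn1, Postn, Thbs2 and Mfge8 the vector control is the lowest point.

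Fn1, which encodes fibronectin, lies on chromosome 1 from 71585520 to 71653200 on the minus strand. Fn1 RPKM was 606 in parental cells, 164 with the vector, 414 after exon 3 editing and 340 after exon 2 editing. Both knockouts lay between the controls, which were themselves 3.70 times apart. The control mean was 385 ± 312 and the knockout mean 377 ± 52.2 RPKM (SD, n = 2 each). The log2 difference was 0.25 (SE 0.492), while the ratio of the means was 0.979, so the sign differed between the log and linear scales. Leaving out the vector control gave -0.69 and leaving out the parental line gave 1.19, and the GC and length correction gave 0.66. The deposited values are 1 per gene, so the spliced forms of fibronectin were not separated.

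Sparc, a collagen-binding glycoprotein also known as osteonectin, had the highest mean RPKM of the 9 genes (chromosome 11 from 55394500 to 55423183, minus strand). Sparc RPKM was 1239 in parental cells, 738 with the vector, 934 after exon 3 editing and 577 after exon 2 editing. The groups overlapped, with 1 knockout on each side of the vector control. Mean Sparc was 989 ± 354 RPKM for controls and 756 ± 252 for knockouts (SD, n = 2 each). The log2 difference was -0.38 (SE 0.361), and it was -0.75 without the vector control but -0.01 when the parental line was left out.

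Postn encodes periostin, a matrix protein of fibroblasts and a ligand of integrins containing the alpha v chain (chromosome 3 from 54361109 to 54391037, plus strand). Postn RPKM was 238 in parental cells, 37.9 with the vector, 62.4 after exon 3 editing and 87.9 after exon 2 editing. The parental line stood apart from the other 3, and both knockouts lay above the vector control. Group means were 138 ± 142 RPKM for controls and 75.2 ± 18.01 for knockouts (SD, n = 2 each). The controls were 6.28 times apart and the log2 difference between the groups was -0.36 (SE 0.630). It was 0.33 after the GC and length correction, -1.67 without the vector control, while leaving out the parental line gave 0.95.

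Spp1 encodes osteopontin, a secreted phosphoprotein that binds integrins and CD44 (chromosome 5 from 104435118 to 104441050, plus strand). Spp1 RPKM was 1111 in parental cells, 268 with the vector, 257 after exon 3 editing and 622 after exon 2 editing. The exon 3 knockout and vector control had overlapping counting intervals, and the exon 2 knockout lay between them and the parental line. Mean Spp1 was 690 ± 596 RPKM for controls and 440 ± 258 for knockouts (SD, n = 2 each). The log2 difference between the groups was -0.45 (SE 0.582). It was -1.47 without the vector control, 0.58 without the parental line, 0.19 without the exon 3 knockout and -1.08 without the exon 2 knockout, and -0.28 after the GC and length correction. Spp1 was the only one of the 8 tested genes at least 2-fold apart between the knockouts, with a log2 difference of 1.27 for exon 2 over exon 3. Over all tested genes 2.57% were at least 2-fold higher in the exon 2 knockout and 2.43% at least 2-fold lower.

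Thrombospondins are trimeric or pentameric glycoproteins, and Thbs1 and Thbs2 encode the trimeric pair, best known as inhibitors of blood vessel growth. Thbs1 (chromosome 2 from 118111876 to 118127133, plus strand) had RPKM of 192 in parental cells, 133 with the vector, 130 after exon 3 editing and 151 after exon 2 editing. It varied least of the 9 genes, with the highest library 1.48 times the lowest, and the exon 3 knockout and vector control had overlapping intervals. The log2 difference was -0.19 (SE 0.310), and it was 0.07 without the parental line and 0.01 after the GC and length correction. Mean Thbs1 was 163 ± 41.7 RPKM for controls and 140 ± 14.8 for knockouts (SD, n = 2 each).

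Thbs2 (chromosome 17 from 14665500 to 14694235, minus strand) was far lower, at 3.65 RPKM in the parental line (401 reads), 0.324 in the vector control (29 reads), 5.33 in the exon 3 knockout (440 reads) and 3.05 in the exon 2 knockout (241 reads). The vector control stood apart from the other 3 libraries, at an 11.2-fold lower RPKM than the parental line. Intervals of the exon 2 knockout and parental line overlapped. The log2 difference between groups of 1.03 (SE 0.539) was 0.12 without the vector control and 1.93 on leaving out the parental line. Per length, Thbs1 exceeded Thbs2 by 52.7 times in parental cells, 411 with the vector, 24.4 after exon 3 editing and 49.4 after exon 2 editing.

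Tnc encodes tenascin-C, a hexameric anti-adhesive glycoprotein of wounds and invasive tumor fronts (chromosome 4 from 63959785 to 64047015, minus strand). It was the lowest of the 9 genes, and its mean RPKM of 0.688 put it below the filter for testing. Tnc RPKM was 0.900 in the parental line (178 reads), 0.827 in the vector control (133 reads), 0.209 in the exon 3 knockout (31 reads) and 0.815 in the exon 2 knockout (116 reads). The exon 3 knockout was the low library, and the intervals of the exon 2 knockout, vector control and parental line overlapped from neighbour to neighbour. Although both knockouts lay below both controls, the log2 difference of the exon 2 knockout was -0.01 against the vector control and -0.07 against the parental line.

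Considered together, 6 of the 9 genes had a negative log2 difference between knockouts and controls and 3 a positive one. The median over the 8 tested genes was -0.28, against -0.08 over all tested genes. Leaving out the vector control gave a median of -0.72 and leaving out the parental line 0.62, and with all 4 libraries the GC and length correction gave 0.09. Knockouts lay below both controls for 2 of the 9 genes (Edil3 and Tnc) and above both for none, whereas 31.2% of all tested genes had both knockouts lower and 21.9% both higher.

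**Figure D2:**
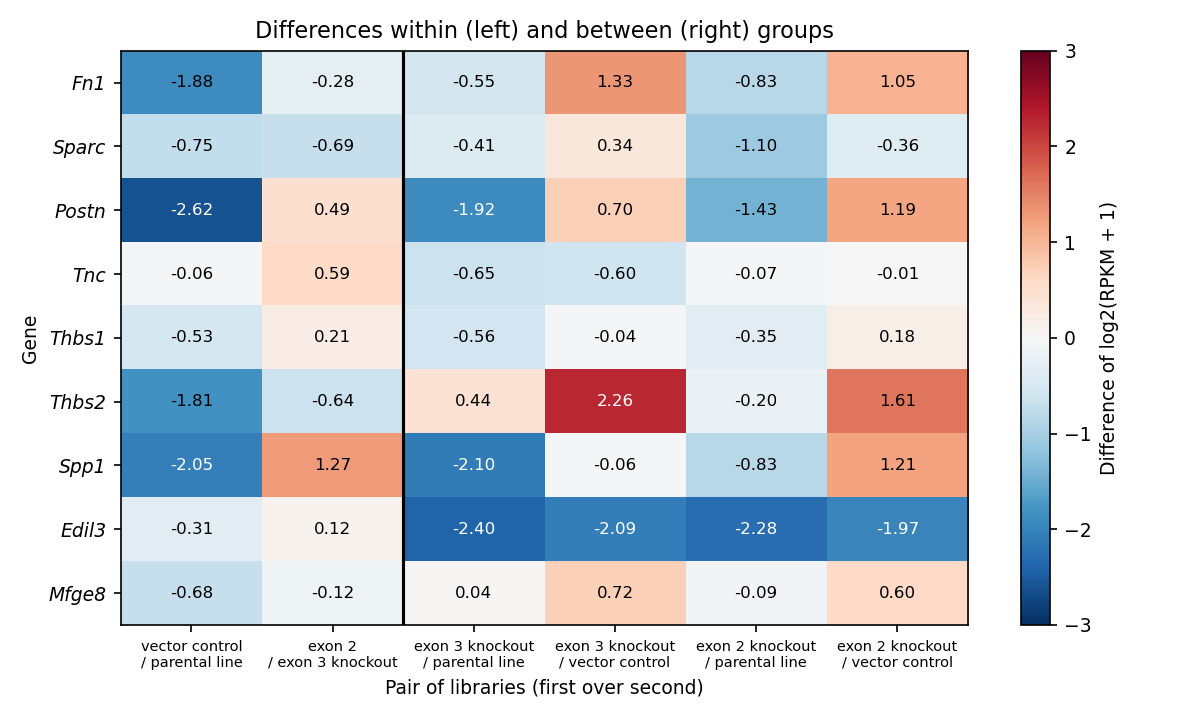
Difference of log2(RPKM + 1) for each of the 9 genes between 2 libraries; the 2 columns left of the line compare libraries of the same group and the 4 on the right compare a knockout with a control. Edil3 is at -1.97 or below in all 4 columns on the right and at -0.31 and 0.12 on the left, while Postn, Spp1 and Fn1 have -2.62, -2.05 and -1.88 between the controls.

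For most of these genes the controls lay further apart than the group means did. All 9 were lower in the vector control than in the parental line, and among tested genes 8 of 8 were, against 36.6% of all tested genes. At least a 2-fold difference was reached by 4 (Fn1, Postn, Thbs2 and Spp1), against 5.19% of all tested genes. None of the 8 was 2-fold higher in the vector control, as 3.34% of all tested genes were. The parental line was the highest library for 7 of the 9 genes (6 of the 8 tested), against 20.9% of all tested genes, and the vector control the lowest for 4, against 18.1%. The median log2 difference of the 8 was -1.28, while over all tested genes it was 0.16. The 8 genes were also lower in the vector control after median ratio scaling, quantile normalization and the GC and length correction. For 7 of the 8, all but Edil3, the difference between the controls was larger than that between the group means, which 47.1% of all tested genes showed. These measures are unlike, since the first sets 1 library against 1 and the second averages 2 libraries a group. Among single pairs of libraries, the controls were the furthest apart for Fn1 and Postn but not for the other tested genes. Each control is 1 library, so the contrast between the controls compares 2 libraries and has no replicate check.

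Between the knockouts, 4 of the 9 genes were lower in exon 2 and 5 of the 9 higher, and the median difference of the 8 tested genes was -0.004, against 0.05 over all tested genes. The summed RPKM of the 9 genes was 3827 in parental cells, 1615 with the vector, 2241 after exon 3 editing and 2184 after exon 2 editing. This was 0.800% of all RPKM in parental cells, 0.302% with the vector, 0.393% after exon 3 editing and 0.405% after exon 2 editing. Sparc, Spp1, Mfge8 and Fn1 took most of it, and Spp1 alone accounted for 29.0% of the sum in the parental line and 11.5% in the exon 3 knockout. Ordering the 4 libraries of each gene by level gave 27 neighbouring pairs, of which 7 had overlapping counting intervals.

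**Figure D3:**
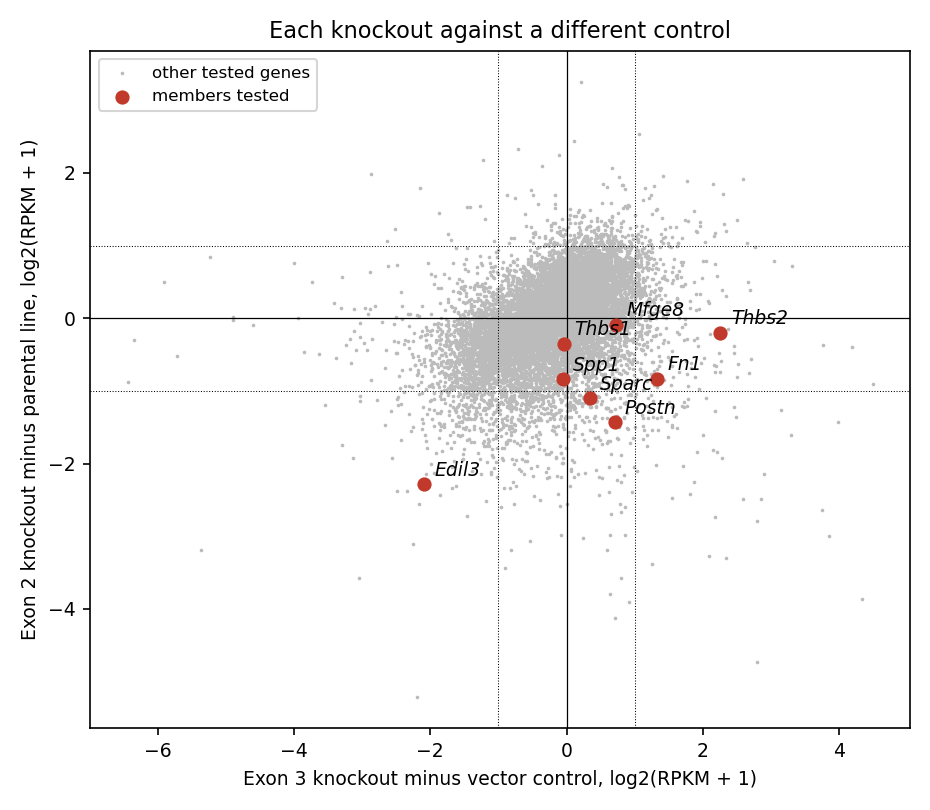
Each tested gene by the exon 3 knockout minus the vector control (horizontal axis) and the exon 2 knockout minus the parental line (vertical axis), both as differences of log2(RPKM + 1), with no library used on both axes; dotted lines mark 2-fold. Edil3 lies at -2.09 and -2.28 and is the only 1 of the 8 labelled genes beyond 2-fold on both axes in the same direction.

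The genes whose profile over the 4 libraries was most like that of Edil3 were taken by the root mean square difference of log2(RPKM + 1), centred on the mean of the libraries. In order they were Nfat5 (0.08), Prrx1 (0.16), Sprr1a (0.18), Ttll7 (0.18) and Macc1 (0.21). Nfat5, a transcription factor of the osmotic stress response, had RPKM of 23.2 in parental cells, 17.7 with the vector, 3.46 after exon 3 editing and 4.48 after exon 2 editing. Prrx1, a homeobox factor of mesenchymal cells, had 56.0, 35.1, 10.3 and 10.3 in the same order. Sprr1a had 24.1, 14.5, 2.45 and 3.27, and Ttll7 had 6.14, 6.53, 0.889 and 0.771. Macc1, a regulator of Met transcription, had 7.56, 4.30, 0.371 and 0.962. Each of these was chosen for this pattern, so the likeness is a description over 4 libraries.

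Related genes were counted from 4 lists: other matricellular genes, receptors of these ligands, other matrix glycoproteins with the fibronectin crosslinker Tgm2, and genes of phosphatidylserine bridging, discoidin domains and engulfment. Of 76 listed genes 46 were tested. The lists were chosen with earlier results of these data known, so the counts describe these genes and are no independent test. In limma, fitted over all tested genes with Benjamini-Hochberg adjustment, 0 of the 46 had an adjusted p under 0.05, where 0.0184% of all tested genes did. An unadjusted p under 0.05 was reached by 16 of the 46 (13 lower and 3 higher in the knockouts), where 19.1% of all tested genes did. A robust prior in limma called 3 of the 46 and 285 of all tested genes. The median log2 difference was -0.10, with 24 lower and 22 higher. At least 2-fold lower in all 4 pairs were 2 of the 46, and 0 were at least 2-fold higher, where 1.73% and 0.267% of all tested genes were.

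The integrin chain Itgb8 and the collagen receptor Ddr2 were those 2 genes. Itgb8 RPKM was 2.79 in parental cells, 3.26 with the vector, 0.610 after exon 3 editing and 0.831 after exon 2 editing, with a log2 difference of -1.23 (SE 0.375, adjusted p 0.146 in limma). Ddr2 RPKM was 99.6, 70.5, 32.8 and 30.8 over those libraries, and its log2 difference was -1.37 (SE 0.309, adjusted p 0.102 in limma). After the GC and length correction the differences were -0.52 and -1.10.

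Receptors had 10 tested genes of 15, of which 6 were lower and 4 higher, with a median of -0.39. The most abundant were Sdc4, a syndecan that cooperates with integrins on fibronectin, and Itgb1, the beta chain shared by many integrins. Itgb1 RPKM was 291 in parental cells, 261 with the vector, 140 after exon 3 editing and 138 after exon 2 editing, with a log2 difference of -0.98 (SE 0.287, adjusted p 0.138 in limma) that was -0.15 after the GC and length correction. Sdc4 RPKM was 172, 221, 228 and 251 in the same order.

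Edil3 and Mfge8 are known to bind integrins of the alpha v chain with beta 3 or beta 5, and these chains, outside the naming rule, are given although their values had been seen. Itgav RPKM was 59.1 in parental cells, 34.3 with the vector, 16.8 after exon 3 editing and 19.7 after exon 2 editing, with a log2 difference of -1.26 (SE 0.341, adjusted p 0.128 in limma) that was -0.75 after the GC and length correction. Itgb5 RPKM was 101, 61.8, 125 and 132 in that order, with a log2 difference of 0.69 (adjusted p 0.27 in limma), and Itgb3 was low in every library, between 0.187 and 1.20. The knockouts lay below both controls for Itgav and above both for Itgb5, as they did for 31.2% and 21.9% of all tested genes. Of the 10 tested receptors 5 had both knockouts lower and 4 both higher.

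Other matricellular genes had 7 tested of 23, of which 4 were lower and 3 higher, with a median of -0.12. The most abundant were the CCN genes Cyr61 (279, 391, 378 and 244 RPKM in the parental line, vector control, exon 3 and exon 2 knockouts) and Ctgf (149, 24.6, 116 and 94.5 in that order). The bridging and engulfment list had 12 tested genes of 16, of which 6 were lower and 6 higher. Axl, a receptor for phosphatidylserine-bound ligands, was the most abundant, at 591, 295, 409 and 496 RPKM in the same order, followed by Nrp2 at 118, 105, 79.2 and 66.8.

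**Figure D4:**
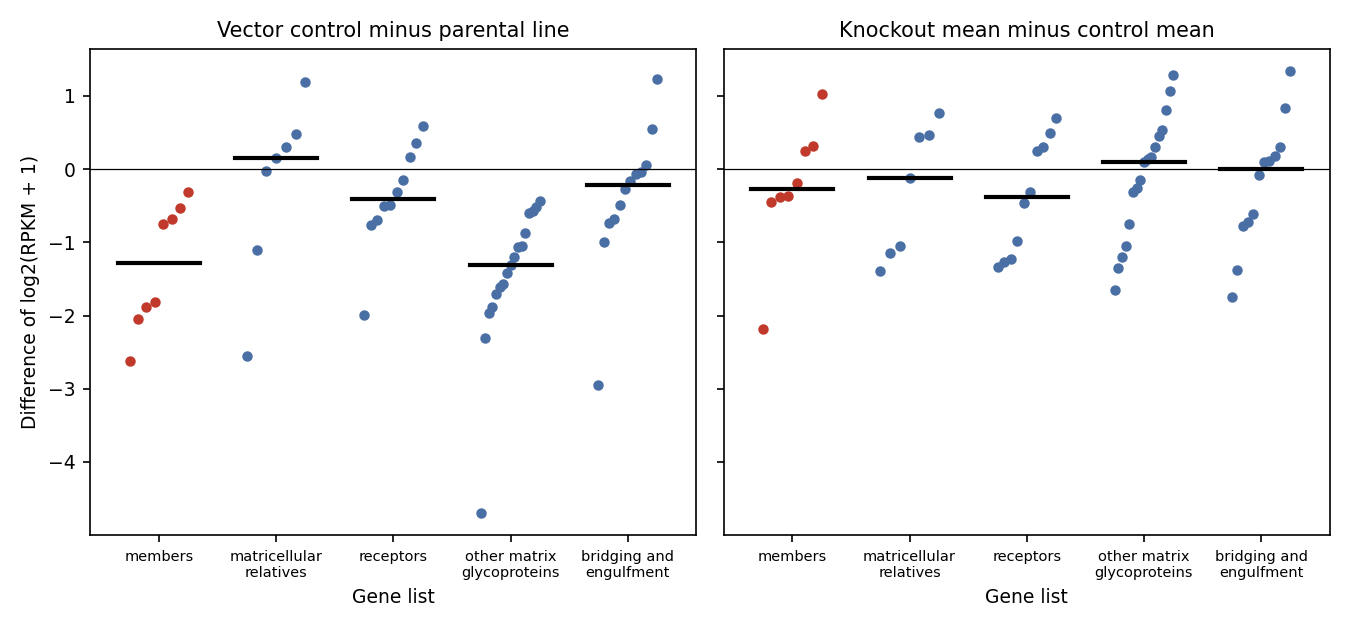
Difference of log2(RPKM + 1) of each tested gene (points) and the list median (bar) for the 8 tested genes described here and 4 lists of related genes, between the controls (left) and between group means (right). The members and the other matrix glycoproteins have medians of -1.28 and -1.32 between the controls, and -0.28 and 0.10 between the groups.

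Matrix glycoproteins beyond the 9 genes also separated the controls. All 17 tested genes of that list were lower in the vector control than in the parental line, against 36.6% of all tested genes, and 12 of them were at least 2-fold lower, against 5.19%, with a median log2 difference of -1.32. Efemp1, a fibulin-like protein, had RPKM of 341 in parental cells, 67.9 with the vector, 81.1 after exon 3 editing and 230.2 after exon 2 editing. Ltbp1, which tethers latent Tgf-beta to the matrix, had 176, 47.0, 97.8 and 97.7 in that order. Fbln2, singled out after its values were seen, had 95.3, 2.72, 58.1 and 34.8. Between the groups 8 of the 17 were lower and 9 higher, with a median of 0.10. Over all 46 tested related genes 36 were lower in the vector control. That held for 3 of 7 other matricellular genes, 7 of 10 receptors and 9 of 12 bridging and engulfment genes. At least 2-fold lower were 2, 1 and 1 of these, and the difference between the lists was not tested.

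Markers were read to see which cells the libraries could hold. All 7 mesenchymal markers passed the filter, with summed RPKM of 4028 in parental cells, 2330 with the vector, 1805 after exon 3 editing and 2068 after exon 2 editing. Vim was 2418, 2060, 1362 and 1721 in that order, Col1a2 was 808, 149, 297 and 194, and Col1a1 was 670, 6.93, 54.3 and 24.2, so Col1a1 separated the controls as the matrix genes did. Both knockouts lay below both controls for 3 of the 7 (Vim, Zeb1 and Zeb2), against 31.2% of all tested genes. Zeb2, a repressor of epithelial genes, was 9.42, 11.5, 3.14 and 4.91. Its log2 difference was -1.21 (adjusted p 0.138 in limma), and -0.60 after the GC and length correction. Its relative Zeb1 had a log2 difference of -0.52, Cdh2 of 0.003 and Pdgfrb of -0.12. Of 6 epithelial markers only Krt8 and Krt18 passed the filter, and the list sum was 130, 34.3, 107 and 74.8. By the description of the study, the parental line came from a sarcomatoid adenocarcinoma, and cells from sarcomatoid tumors had a spindle shape. Of 7 macrophage and leukocyte markers, Cd68 and Cd14 passed the filter, while Ptprc, which marks all leukocytes, was at or below 0.0101 in every library and Emr1 and Cd3e were listed at 0. Cd68, a lysosomal protein abundant in macrophages, was 4.92, 3.36, 11.5 and 13.2, at least 2-fold higher in all 4 pairs, with a log2 difference of 1.39 (SE 0.340, adjusted p 0.105 in limma). Cd14, a coreceptor for bacterial lipopolysaccharide, was 9.42, 34.5, 8.74 and 7.15, with a log2 difference of -1.11 (adjusted p 0.25 in limma), and the vector control was its high library. The list sum was 14.4, 38.4, 20.7 and 21.0. Endothelial and platelet markers summed to between 2.07 and 3.82. Most of this was Itga2b, the only 1 of them to pass the filter, at 2.73, 1.88, 2.75 and 3.57 in the same order of libraries. In bulk libraries, fewer cells of a type and less RNA per cell cannot be told apart, and the part of the mesenchymal, epithelial and macrophage marker differences in the values above was not tested.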

How the data were processed

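Libraries from 4 cell lines were grouped by their titles. The authors deposited RPKM values per gene, 1 column per library, with no log scale or scaling between libraries. The submitters' processing notes name CASAVA 1.8, GSNAP and GRCm38; the gene model and counting rule are not given in the sources used here. RPKM steps were brought to whole reads for 99.97% of genes above 0 (relative tolerance 1e-08), and recovered lengths matched annotated coding lengths for 8 of the 9 genes (not Spp1) but for only 56.0% of tested genes. The parental total was taken as the most frequent value given by reads, RPKM and annotated coding lengths, and the other totals followed from relative depth. Read counts and intervals rest on these inferred totals. Coding GC content came from GENCODE M21 (GRCm38), whose symbols or RefSeq synonyms covered 99.4% of the table. All 4 columns were matched to a library.

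Genes with mean RPKM of at least 1 (10871) were tested as log2(RPKM + 1) by limma 3.58.1 (R 4.3.3) with an intensity trend, 2 knockouts against 2 controls, with Benjamini-Hochberg adjustment and a threshold of 0.05. SE is limma's moderated standard error. The fit was tested on simulated data. Replicates are separate lines that also differ by the vector (controls) or by the guide (knockouts). The spread behind the p-values therefore mixes line with vector or guide. Wilson intervals (95%) used the recovered reads. Other steps used Python 3.11.15, pandas 2.3.3 and scipy 1.17.1.

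The 9 genes and the lists were chosen with earlier results of these data known. Named related genes were those at least 2-fold apart in all 4 pairs and the 2 most abundant of each list; the 5 genes nearest to Edil3 in profile were also named. Alternatives were a pseudocount of 0.1, median ratio scaling, quantile normalization, a GC and length correction (10772 genes), no filter, a filter at 5, other limma priors, 3-fold in place of 2-fold, and leaving out each library.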

Additional observations from a re-analysis of the deposited data

How the results depend on the processing

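Alternatives are a pseudocount of 0.1, median ratio scaling, quantile normalization and the GC and length correction, in that order, unless named. With 2 libraries a group, depth limited Edil3, Thbs2 and Tnc most, at 29 to 34 reads in their lowest libraries. Over all genes limma called 2, against 1, 0, 1 and 0, 0 with no filter, 32 with a filter at a mean of 5 RPKM, 285 with a robust prior and from 3 to 788 leaving out 1 library. Genes at least 2-fold lower in every pair numbered 188, against 330 with the pseudocount, 94 with quantile normalization, 78 with the GC and length correction and 16 at 3-fold, and from 351 to 823 leaving out 1 library. Genes at least 2-fold higher numbered 29, against 44, 51, 18 and 1 in the same order, and from 102 to 235. Median ratio scaling moved that pair of counts to 143 lower and 43 higher. Of the related genes, limma called 0, 3 with a robust prior and from 0 to 11 leaving out 1 library (11 lacking the vector library, 10 lacking the parental one). Those 2-fold lower in every pair were 2, against 5, 1, 1 and 1, 1 with the filter at 5, 0 at 3-fold and from 4 to 10 leaving out 1 library, and those 2-fold higher from 0 to 6. The causes were not tested.

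For the 8 tested genes the median difference between groups was -0.28, against -0.28, -0.19, -0.41 and 0.09, so its direction turned under the GC and length correction, and it ran from -0.72 to 0.62 leaving out 1 library. Between the controls it was -1.28, against -1.32, -1.36, -1.21 and -1.10. Between the knockouts it was -0.004, against 0.040 with the pseudocount, 0.047 with quantile normalization and -0.10 with the GC and length correction. Postn and Thbs1 changed sign between groups with all 4 libraries kept, and 5 of the 9 genes did when 1 library was left out. Edil3 was at least 2-fold lower in every pair under each alternative run on it (the filter at 5 leaves it out), from -2.85 (pseudocount of 0.1) to -1.66. Quantile normalization moved the median of all tested genes by 0.12 and the GC and length correction also by 0.12. No paired analysis was possible because the replicate numbers follow accession order and pair nothing.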
